A study of Mus musculus with 4 samples.

Results

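Lipolysis and lipid droplet genes were examined in gonadal white adipose tissue (gWAT) of mice that lack Dnmt1, the maintenance DNA methyltransferase, in adipocytes. The 10 genes were taken by symbol from the deposited expression table, where each had exactly 1 of 17335 rows. They are Pnpla2, Lipe, Mgll, Abhd5, Plin1, Plin4, G0s2, Cidec, Adrb3 and Pde3b. The samples were 2 RNA-seq libraries. One held pooled gWAT RNA of 4 female Dnmt1 fl/fl mice, the floxed controls. The other held pooled gWAT RNA of 4 female AD1KO mice, whose floxed Dnmt1 alleles are cut by Cre under the adiponectin promoter, which is active mainly in mature adipocytes. Both groups had eaten high-fat diet (HFD), for 18 weeks by the series description; the ages of the animals are not given in the sources used here. Because the animals were pooled, there was 1 library per group, no spread between animals could be measured, and no test was possible. Each comparison below is between these libraries.

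White adipocytes store triglyceride in a single large lipid droplet and release it by lipolysis. In this pathway ATGL (Pnpla2), HSL (Lipe) and monoglyceride lipase (Mgll) act in sequence, each removing 1 fatty acid. CGI-58 (Abhd5) activates ATGL and G0S2 inhibits it. Perilipin 1 (Plin1) coats the droplet and holds CGI-58 away from ATGL until protein kinase A phosphorylates it. Catecholamines start this signal through the beta3-adrenoceptor (Adrb3) and cAMP, and insulin damps it through PDE3B (Pde3b), which degrades cAMP. CIDEC (Cidec) fuses droplets into larger ones, and perilipin 4 (Plin4) is a further coat protein of adipocytes.

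All 10 genes had more FPKM (fragments per kilobase of transcript, scaled to the size of the library) in AD1KO than in fl/fl. Their log2 ratios of AD1KO over fl/fl ran from 0.42 for Abhd5 to 0.96 for Cidec, with a median of 0.54, against a median of -0.04 over 15839 genes tested. By the threshold of 0.5 used in the study's methods, 7 genes were higher, namely Cidec, Adrb3, Plin4, Mgll, Plin1, Lipe and G0s2, 0 were lower, and Pde3b, Pnpla2 and Abhd5 fell short of it. Of all tested genes 14.3% were higher and 19.1% lower by that rule. The 10 genes are abundant, and among the 6161 genes that reached 10 FPKM in either library 8.54% were higher, 14.4% were lower and 44.8% had a ratio above 0. Cidec had the largest fold of the 10, 1.94, and 81 of those 6161 genes had a larger ratio than it.

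Reads were estimated from the steps of the FPKM values, which gave 17660000 reads for the fl/fl library and 17510000 for that of AD1KO. The 10 genes had from about 1229 to 80725 reads per library, so counting error was small. The 95% counting intervals given here are exact Clopper-Pearson intervals on those reads and cover counting error only. At such read counts small ratios can exclude 0 too, as Cd36 at 0.14 (0.13 to 0.16) and Gnas at 0.11 (0.09 to 0.14) show. The share of all genes with an interval above 0 was not counted. The whole interval lay above 0 for all 10 genes, above 0.5 for 6 (5.28% of the genes that reached 10 FPKM) and below 0.5 for 1, Pnpla2, while those of G0s2, Pde3b and Abhd5 held 0.5. How many genes pass the threshold therefore turns on the scale of the libraries. It was 8 after scaling by the median of ratios, 9 by trimmed mean of M-values and 10 by the upper quartile, which raise every log2 ratio by 0.04, 0.05 and 0.09. The same scalings also moved the whole table, from 2265 genes higher and 3029 lower to 2454 and 2824, 2523 and 2787, and 2804 and 2589, so that with the upper quartile more genes were higher than lower.

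Dnmt1 itself (mm9 chr9:20711650-20757317, minus strand) had 6.99 FPKM in the fl/fl library against 3.33 in that of AD1KO, giving a log2 ratio of -1.07 (interval -1.27 to -0.87), so the library labelled AD1KO had the lower level. The value is over the whole transcript and does not show the deleted exons by themselves. Both libraries had the genes that define white fat, with Adipoq (adiponectin) at 1911 and 3318 FPKM.

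The promoters of 8 of the 10 genes were found in a RefSeq promoter table (GRCm38.p6), as 11 windows of 250 bases before a transcription start. Since Dnmt1 acts on CpG dinucleotides, 4 windows are shown with each CpG in capitals. Cidec and Abhd5 had the largest and the smallest log2 ratio, Mgll had the window with the most CpGs, and Plin1 shared the lowest count with 1 window of Lipe. The Cidec window lies at chr6:113435761-113436010 (minus strand), that of Abhd5 at chr9:122351366-122351615 (plus strand), that of Plin1 at chr7:79732777-79733026 (minus strand) and that of Mgll, the second of 2, at chr6:88724454-88724703 (plus strand).
Cidec: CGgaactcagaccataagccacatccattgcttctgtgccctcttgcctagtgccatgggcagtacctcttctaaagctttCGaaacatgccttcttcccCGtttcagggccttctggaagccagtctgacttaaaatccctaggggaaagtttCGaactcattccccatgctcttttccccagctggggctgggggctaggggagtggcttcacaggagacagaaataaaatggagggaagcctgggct
Abhd5: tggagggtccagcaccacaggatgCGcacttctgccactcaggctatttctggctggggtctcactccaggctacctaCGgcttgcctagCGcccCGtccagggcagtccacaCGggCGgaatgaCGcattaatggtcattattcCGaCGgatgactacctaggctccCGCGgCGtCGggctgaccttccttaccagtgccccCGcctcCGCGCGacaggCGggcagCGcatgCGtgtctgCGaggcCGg
Plin1: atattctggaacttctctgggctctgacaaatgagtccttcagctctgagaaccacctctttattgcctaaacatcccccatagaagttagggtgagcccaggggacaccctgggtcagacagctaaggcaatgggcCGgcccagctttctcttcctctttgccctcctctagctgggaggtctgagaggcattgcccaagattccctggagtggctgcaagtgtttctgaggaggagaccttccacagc
Mgll: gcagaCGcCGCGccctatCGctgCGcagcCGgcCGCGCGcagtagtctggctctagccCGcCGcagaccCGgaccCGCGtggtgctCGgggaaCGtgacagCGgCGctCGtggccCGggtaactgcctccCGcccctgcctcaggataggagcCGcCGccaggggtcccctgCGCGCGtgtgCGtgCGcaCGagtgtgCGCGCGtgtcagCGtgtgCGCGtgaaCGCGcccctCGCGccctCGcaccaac

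The 4 windows held 4, 22, 1 and 40 CpGs, against a median of 6 over 32851 promoters. The other window of Cidec had 6 CpGs and that of Mgll 23. Plin4 had 6, G0s2 11, Pnpla2 12, and Lipe 18 and 1 in its 2 windows. Mgll at 0.57, with 23 and 40 CpGs, and Plin1 at 0.54, with 1, were neighbours in the order of log2 ratios. At the ends of that order, Cidec at 0.96 had 4 and 6 CpGs and Abhd5 at 0.42 had 22. Whether promoter CpGs bear on the ratios was not tested. Methylation at these sites was not analysed here.

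Letters of known binding motifs were searched on both strands of the 11 windows. The GC box GGGCGG was in 5 windows, 1 each of Abhd5, G0s2, Lipe, Mgll and Pnpla2, and in 32.7% of all promoters. The E-box CACGTG was in 2 windows, of Lipe and Mgll (6.02% of promoters), and the cAMP response half-site TGACG in 2, of Abhd5 and G0s2 (17.8%). The nuclear receptor half-site AGGTCA was in 1, of Abhd5 (14.0%). The DR1 repeat bound by PPAR gamma and the estrogen response palindrome are each built of that half-site, so their matches overlap it, and either was in 0 windows (0.0335% and 0.0213% of promoters). The box TATAAA was in 0 windows (12.37% of promoters) and CCAAT in 1, of Plin4 (33.8%).

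The 3 lipases stood among the most abundant transcripts of the tissue. Pnpla2 (mm9 chr7:148641097-148646642, plus strand), whose product takes the first fatty acid from triglyceride, had 621 FPKM in fl/fl against 856 in AD1KO, ranking 161st and 79th among tested genes. Its log2 ratio was 0.46 (interval 0.44 to 0.48), below the threshold. Lipe (chr7:26164546-26183729, minus strand), which cleaves diglyceride, rose from 344 to 500.05 FPKM, giving a log2 ratio of 0.54 (0.51 to 0.57). Mgll (chr6:88674406-88778354, plus strand), which cleaves the last fatty acid from glycerol, rose from 476 to 707 FPKM, giving 0.57 (0.55 to 0.59). The intervals of Lipe and Mgll overlap, and both lie above that of Pnpla2. Lipe and Mgll overlap genes on the other strand, and whether the libraries kept strand is not given in the sources used here, so reads of such partners cannot be told apart from theirs.

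The regulators of ATGL had ratios close to that of the enzyme. Abhd5 (chr9:122260726-122290642, plus strand), the coactivator, had 40.6 FPKM in fl/fl against 54.4 in AD1KO, and its log2 ratio of 0.42 (0.34 to 0.50) was the smallest of the 10. G0s2 (chr1:195098355-195099382, minus strand), the inhibitor, rose from 283 to 401 FPKM, with a ratio of 0.51 (0.44 to 0.57). Within a library the inhibitor transcript was therefore several times as abundant as that of the coactivator, 6.96 times in fl/fl and 7.38 times in AD1KO. That ratio differed between the libraries by 0.08 on the log2 scale, with an interval from -0.02 to 0.18 that includes 0. The level of G0s2 was 0.455 of that of Pnpla2 in fl/fl and 0.468 in AD1KO (log2 difference 0.04, interval -0.02 to 0.11), and that of Abhd5 was 0.0653 and 0.0635 of it (-0.04, interval -0.12 to 0.04). A change in the balance of the transcripts of ATGL, its activator and its inhibitor was thus not seen beyond counting error. Proteins were not measured in these libraries. These intervals of ratios within a library use a normal approximation on the log scale.

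The droplet coat and fusion genes held the largest difference. Cidec (chr6:113374628-113385754, minus strand) rose most, from 1487 to 2885 FPKM and from rank 47 to rank 16 among tested genes. Its log2 ratio of 0.96 (0.94 to 0.97) lay above the intervals of the other 9 genes. Plin1 (chr7:86866050-86877662, minus strand) went from 244.6 up to 357 FPKM (log2 ratio 0.54, interval 0.50 to 0.59), and Plin4 (chr17:56240014-56249225, minus strand) from 244.4 to 365 FPKM (0.58, interval 0.56 to 0.60). Plin4 overlaps a gene on the other strand. In fl/fl the levels of Plin1 and Plin4 could not be told apart at this depth. In AD1KO Plin4 was 1.02 times as high (log2 difference of levels 0.04, interval 0.004 to 0.07). That interval covers counting error only. Levels of different genes also depend on the transcript lengths used, so the order of Plin1 and Plin4 is uncertain. Cidec was 6.08 times as abundant as Plin1 in fl/fl and 8.09 times in AD1KO, a change of 0.41 on the log2 scale (0.37 to 0.46). Plin1 against Abhd5, the partner it holds back, went from 6.03 to 6.56 times (0.12, interval 0.03 to 0.21).

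The receptor and the phosphodiesterase, which act on cAMP from opposite sides, were the 2 least abundant of the 10 genes. Adrb3 (chr8:28336248-28340060, minus strand), the receptor, rose from 27.0 to 44.8 FPKM, and its log2 ratio of 0.73 (0.62 to 0.83) was second to Cidec and above the intervals of the other 8. Pde3b (chr7:121558795-121682765, plus strand), the phosphodiesterase, had 21.0 and 29.6 FPKM, and its ratio of 0.50 (0.41 to 0.58) lies just under the threshold before rounding, while that of G0s2 lies just over it. The level of Pde3b relative to Adrb3 was 0.775 in fl/fl and 0.661 in AD1KO, lower by a log2 difference of -0.23 (-0.36 to -0.10).

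**Figure D1:**
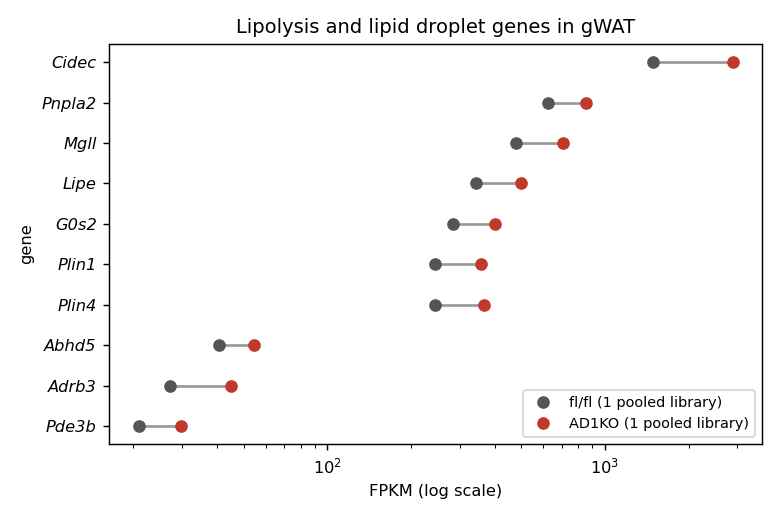
FPKM of the 10 lipolysis and lipid droplet genes on a log axis, with grey points for the fl/fl library and red points for the AD1KO library, 1 pooled library each. Every red point lies to the right of its grey point, and the order of the genes is the same in both libraries apart from Plin1 and Plin4.

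Summed over the 10 genes there were 3790 FPKM in fl/fl and 6200.27 in AD1KO, and their share of estimated reads was 0.879% and 1.39%. Cidec made up 39.3% of the sum in fl/fl and 46.5% in AD1KO. In descending order of level the genes were Cidec, Pnpla2, Mgll, Lipe, G0s2, Plin1, Plin4, Abhd5, Adrb3 and Pde3b in fl/fl, and Plin4 stood before Plin1 in AD1KO. All neighbours in that order except Plin1 and Plin4 in fl/fl differed beyond counting error.

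**Figure D2:**
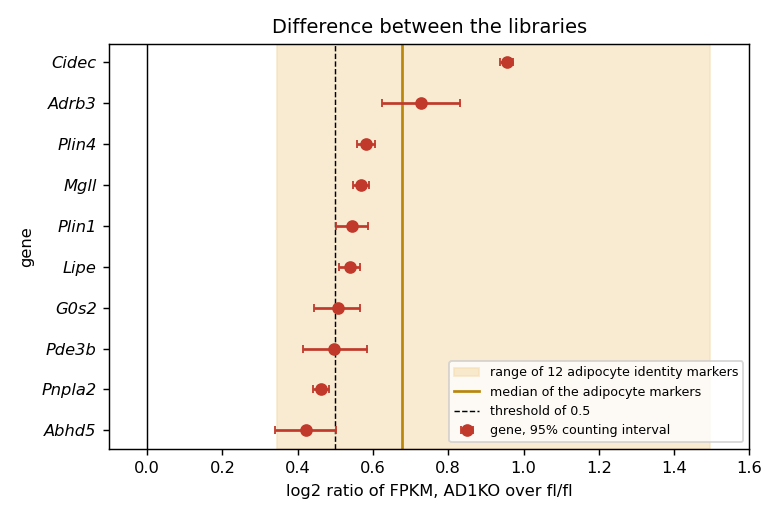
Log2 ratio of FPKM, AD1KO over fl/fl, for each of the 10 genes (red points) with its 95% counting interval (bars), the threshold of 0.5 (dashed) and the range and median of 12 adipocyte identity markers (shaded band and line). The 10 points lie inside the band, Cidec and Adrb3 right of its median of 0.68 and the other 8 left of it.

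The tissue pools also differed in markers of their cells. All 12 adipocyte identity markers had a ratio above 0, 8 of them past 0.5 (Cfd, Fasn, Retn, Slc2a4, Adipoq, Dgat2, Lep and Acaca), with a median of 0.68 and a range from 0.35 for Cebpa to 1.496 for Cfd. Their summed level went from 7424 to 12134 FPKM, 1.63 times, and that of the 10 genes was 1.64 times as high. Cidec alone made up 39.3% and 46.5% of the latter sum, and the median ratio of the 10 genes was lower, at 0.54. All 8 macrophage markers were lower, with a median of -1.04 and a summed level of 3724 FPKM in fl/fl and 1842 in AD1KO, and so were all 4 T and NK cell markers (median -1.78, summed level 70.2 and 19.0 FPKM). All 4 mesothelial markers were higher (median 0.79, 70.6 and 133 FPKM). Of the endothelial markers 0 of 4 passed the threshold (median 0.22), and the 4 stromal progenitor markers had 1 higher, 1 lower and a median of 0.02. The 6 brown fat markers had 1 higher (Elovl3), 1 lower (Ucp1) and a median of 0.19. In these lists no marker was at 0 in either library. Among 5 markers of reproductive tract epithelium Ovgp1, Wfdc2 and Pax8 were lower, and Pax8 was listed at 0 in AD1KO. The other markers of this list, Krt8 at 0.27 and Krt18 at 0.05, did not pass the threshold and were its most abundant ones. The median of this list was -3.19 and its summed level 18.4 FPKM in fl/fl and 12.9 in AD1KO. In bulk tissue fewer cells of a type and less RNA per cell cannot be told apart, and the part of these shifts in the levels of the 10 genes was not tested.

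When all ratios were centred on the median of the adipocyte identity markers, 0 of the 10 genes passed the threshold in either direction and their median became -0.14. On that scale Cidec kept a value of 0.28 (0.26 to 0.29) and Adrb3 one of 0.05 (-0.05 to 0.15). These intervals take the median of the markers as fixed, though the markers themselves ran from 0.35 to 1.496. The other 8 genes ran from -0.25 for Abhd5 to -0.10 for Plin4. This scale lowers every gene by 0.68, so that 686 genes of the table were higher and 10984 lower, in place of 2265 and 3029. The outcome depended on the markers taken. Centred on Pparg and Cebpa alone, the transcription factors of adipocyte differentiation, which were taken once the values were known, all 10 genes stayed above 0, from 0.06 for Abhd5 to 0.60 for Cidec, with a median of 0.18, and 1 passed the threshold. The ratios of this pair were 0.37 and 0.35, below that of each of the 10 genes. None of the 10 could therefore fall below 0 on this scale.

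**Figure D3:**
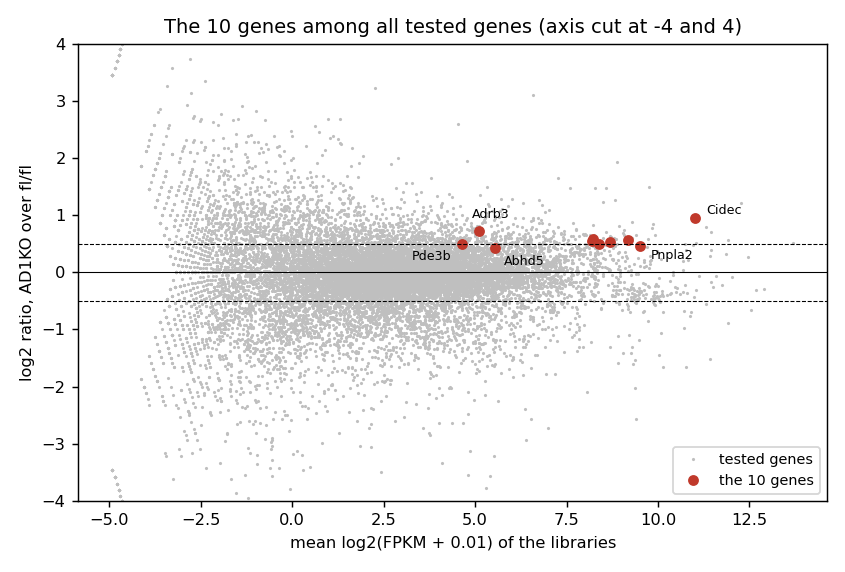
Log2 ratio of AD1KO over fl/fl against mean log2(FPKM + 0.01) for all 15839 tested genes (grey) and the 10 lipolysis and lipid droplet genes (red), with dashed lines at the threshold of 0.5 in either direction. The 10 genes lie above the line of no difference in the middle and right of the plot, and Cidec is the rightmost and highest of them. Genes past 4 in either direction are outside the axis.

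The other members of these gene families did not move as one group. Among perilipins, Plin5, known from oxidative tissues, was at 7.88 and 12.3 FPKM (log2 ratio 0.64, interval 0.41 to 0.87). Plin2, a coat protein found in most cells that store lipid, macrophages included, had 839 FPKM in fl/fl against 619 in AD1KO (-0.44, interval -0.47 to -0.41), short of the threshold on the lower side. Plin3 was at 48.5 and 43.2 FPKM (-0.17). Plin2 was thus 3.43 times as abundant as Plin1 in fl/fl and 1.74 times in AD1KO. Of the CIDE proteins, Cidea, the form of brown fat, fell from 5.88 to 3.38 FPKM (-0.80, interval -1.28 to -0.34), while Cideb rose from about 8 to 22 reads. Adrb1, the beta1-adrenoceptor, was at 0.71 and 0.60 FPKM (-0.24, interval -1.08 to 0.56), far below Adrb3 in both libraries. Of the other cAMP phosphodiesterases listed, Pde4b had a ratio of -0.33 (-0.62 to -0.05) and Pde4d one of 0.05 (-0.20 to 0.30).

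**Figure D4:**
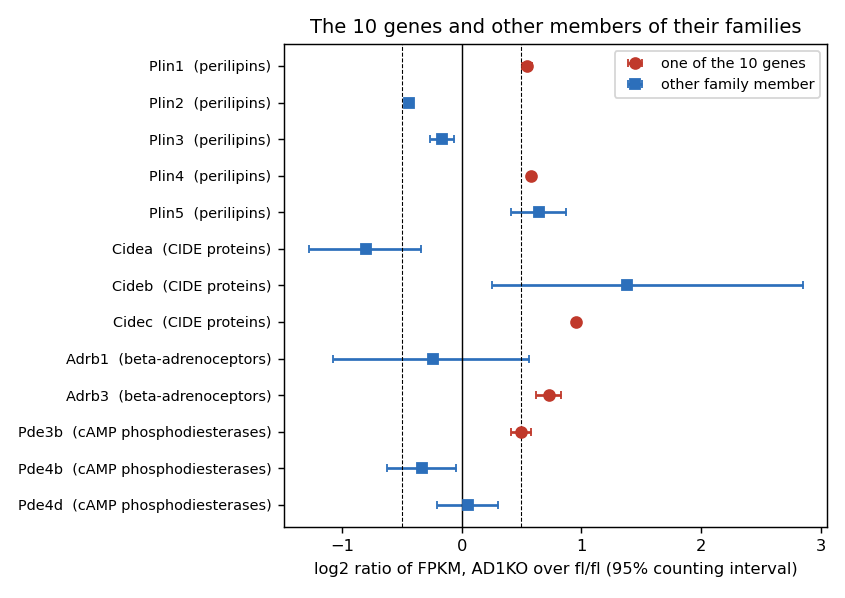
Log2 ratio of AD1KO over fl/fl with 95% counting intervals (bars) for perilipins, CIDE proteins, Adrb1 and Adrb3, and cAMP phosphodiesterases, with red circles for those among the 10 genes and blue squares for the others. Red circles lie near or right of 0.5, and of the blue squares Plin5 and Cideb do so while Plin2, Plin3, Cidea and Pde4b lie left of 0 with their whole interval.

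The wider pathway was described by 6 lists of 63 genes, all of them tested. Over these lists 16 genes were higher and 6 lower, 42 had a ratio above 0, and the median was 0.21, where 14.3% of all tested genes were higher and 19.1% lower. Centred on the adipocyte identity markers the lists had 2 genes higher and 31 lower, and centred on Pparg and Cebpa 3 and 17. Of all 15839 tested genes, 686 were higher and 10984 lower on the first of these scales, and 1133 and 6520 on the second. In the adrenergic and cAMP arm 1 of 15 was higher, Adcy5, an adenylyl cyclase (29.9 and 45.2 FPKM, log2 ratio 0.60), 0 were lower, and the median was -0.01. Gnas, the stimulatory G protein, was at 708 and 766 FPKM (0.11) and the inhibitory Gnai2 at 349 and 264 FPKM (-0.41). The other 14 genes of this arm, protein kinase A subunits included, did not pass the threshold.

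Some receptors that restrain lipolysis were among the higher genes, and others were not. In the list of antilipolytic receptors and the insulin arm 5 of 12 were higher and 1 lower, with a median of 0.39, beside 14.3% and 19.1% of all tested genes. Ptger3, a prostaglandin E2 receptor, rose from 28.3 to 52.5 FPKM (0.89, interval 0.78 to 1.00), and Adora1, the A1 adenosine receptor, from 16.9 to 26.1 FPKM (0.63). The lactate receptor Hcar1 rose from 10.5 to 16.8 FPKM (0.69), the hydroxybutyrate receptor Hcar2 from 7.68 to 11.7 FPKM (0.60) and the insulin receptor substrate Irs2 from 1.30 to 2.19 FPKM (0.75). Of the other receptors, Ffar2, a receptor for short-chain fatty acids, had 37.7 and 40.7 FPKM (0.11, interval -0.004 to 0.22), more in fl/fl than any receptor of this list that passed, and Npy1r, a neuropeptide Y receptor, had 1.05 and 0.95 FPKM (-0.14, interval -0.75 to 0.43). Adra2a, the alpha2A-adrenoceptor, which stands in the adrenergic list, had about 7 and 10 reads. The kinases of the insulin signal differed, as Akt1 fell from 67.5 to 47.1 FPKM (-0.52) and Akt2, the form that matters most for glucose uptake, was at 61.5 and 77.1 FPKM (0.33). In the natriuretic peptide arm 1 of 4 passed, Npr3, the clearance receptor, which rose from 96.1 to 160 FPKM (0.74), while the signalling receptor Npr1 was at 13.9 and 14.7 FPKM (0.08).

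Other lipases went both ways. Lipa, the acid lipase of lysosomes, which macrophages use, fell from 178 to 91.7 FPKM (-0.95, interval -1.01 to -0.90), and Nceh1, a cholesteryl ester hydrolase of macrophages, from 17.9 to 9.25 FPKM (-0.95). Both values lie within the range of the macrophage markers, -1.32 to -0.63, and the part of those cells was not tested. Pnpla3, a relative of ATGL, rose from 46.3 to 71.6 FPKM (0.63) and Abhd6, a monoglyceride hydrolase, from 7.41 to 13.01 FPKM (0.81). Ces1d, a carboxylesterase with triglyceride hydrolase activity, was at 126 and 170 FPKM (0.43). The list had 2 of 9 higher, 2 lower and a median of 0.11, beside 14.3% higher and 19.1% lower of all tested genes.

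Among 17 other droplet coat and size proteins 6 were higher and 3 lower (median 0.26), beside 14.3% and 19.1% of all tested genes. Cav1, caveolin 1, rose from 777 to 1219 FPKM (0.65) and Bscl2, seipin, from 242 to 380.0 FPKM (0.65). Fitm2, which helps droplets form, rose from 20.1 to 30.5 FPKM (0.60) and Fitm1 from about 6 to 32 reads. Hsd17b11 fell from 54.5 to 38.5 FPKM (-0.50). Hsd17b13, counted among the 3 lower ones, had about 27 and 17 reads, and its interval of -1.62 to 0.27 held 0. In the list for fatty acid and glycerol release Fabp4, the fatty acid carrier and the most abundant of the genes listed, rose from 11151 to 15920 FPKM (0.51), and 5 of 6 did not pass, among them Cd36, a fatty acid transporter, at 838 and 926 FPKM (0.14), and Aqp7, the glycerol channel, at 32.7 and 45.2 FPKM (0.47).

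**Figure D5:**
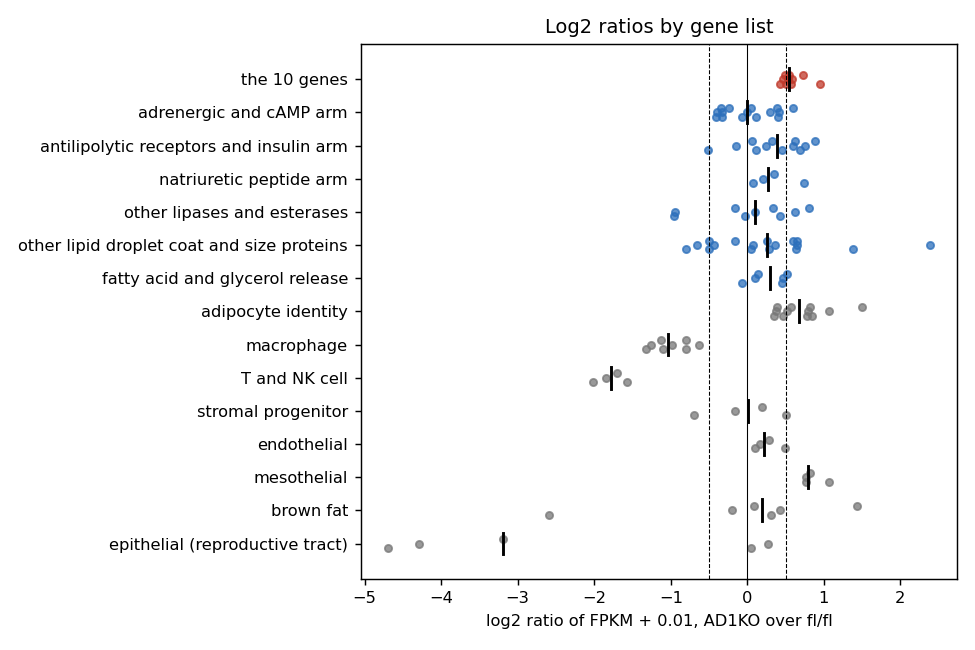
Log2 ratio of FPKM + 0.01, AD1KO over fl/fl, for each gene (points) of the 10 lipolysis and lipid droplet genes (red), 6 pathway lists (blue) and 8 cell marker lists (grey), with the median of each list as a black bar and dashed lines at 0.5 in either direction. The red points sit together at a median of 0.54 and overlap those of the adipocyte identity markers, macrophage and T and NK cell markers lie left of -0.5, and the pathway lists have medians from -0.01 to 0.39. Pax8, listed at 0 in AD1KO, is placed by the 0.01 added.

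By the GO terms in the deposited table, 6 of the 10 genes carry the term lipid droplet and 5 the term triglyceride catabolic process. Of the 51 other named and tested genes with the term lipid droplet, a list taken after the data were seen, 10 were higher and 9 lower, beside 14.3% and 19.1% of all tested genes. Of the 51, 25 had a ratio above 0 and 25 one below 0, and the median was 0.0. The higher ones included Dgat2, Plin5 and Pnpla3, and the lower ones Cidea, Hsd17b11 and Lpcat2.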

How the data were processed

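RNA of 4 female mice per group was pooled, and 1 library per group was sequenced by the authors' service provider on BGISEQ-500. The authors deposited 1 table with FPKM per gene from clean reads aligned to mouse mm9; the aligner and the program that computed FPKM are not given in the sources used here. Values of 0 are written there as 0.01 and were set back to 0. The table also holds the authors' log2 fold change, p-value and FDR score per gene, which were not used. The deposited transcript length was used as given. The 2 RRBS samples were not analysed here.

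The log2 ratio was that of FPKM plus 0.01, AD1KO over fl/fl, for genes with at least 0.1 FPKM in 1 library. A ratio of 0.5 in either direction counted as higher or lower. The words rose and fell are used only past that threshold. The 10 genes, the pathway lists and the marker lists were chosen with earlier results of these data known.

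FPKM times length, less a correction, was fitted to whole reads in genes of few reads. The fit gave a correction of 116 and 117 bases and the depths above. Of 212 and 224 such genes, 75.9% and 73.2% lay within 0.15 of a whole read, where 30% would if values were spread evenly. Intervals are at 95%. No molecular identifiers are named in the sources used here, and this estimate of reads was devised after the file was seen. Depth and reads were recovered from simulated data built by the same rule of whole reads. That cannot show whether the deposited values follow the rule. Named were the 10 genes, Dnmt1, and for each pathway list the 2 highest in fl/fl with up to 2 more past the threshold; other listed genes were named after their values were seen. Matplotlib 3.10.9 drew the figures, and SciPy 1.17.1, pandas 2.3.3 and NumPy 2.4.6 ran on Python 3.11.15. Gene positions are those of GENCODE on mm9. Alternatives were other scalings, pseudocounts, minimum levels and thresholds, and centring on adipocyte markers, of which centring on Pparg and Cebpa and centring without 4 fat synthesis genes were added after seeing the data.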

Additional observations from a re-analysis of the deposited data

How the results depend on the processing

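No paired analysis was possible because each genotype was sequenced as a single pool, and likewise no library could be left out. All 10 ratios stayed above 0 under the 3 library scalings, which raise every ratio, and with the pseudocounts, which cannot change a sign. The minimum levels only filter genes, and all 10 passed each of them. Centred on Pparg and Cebpa the 10 ratios also stayed above 0, as they had to, since both markers had smaller ratios than the 10 genes. On the scale of the 12 adipocyte markers, and on that of the same markers without fat synthesis genes, 8 went below 0. The median of the 10 genes, 0.54, became 0.59 with trimmed mean of M-values and 0.63 with the upper quartile. Centred on all 12 adipocyte markers, 0 of the 10 genes were higher, the median was -0.14, Dnmt1 was at -1.74, the pathway lists had 2 higher and 31 lower, and over all tested genes 686 were higher and 10984 lower. Lipe then had -0.14, Mgll -0.11, Plin1 -0.13, Plin4 -0.10 and G0s2 -0.17. Without Fasn, Acaca, Dgat1 and Dgat2 among the markers, 0 of the 10 were higher, the median was -0.14, Dnmt1 was at -1.75, the lists had 2 and 31, and all tested genes 678 higher and 11084 lower. Lipe had -0.15, Mgll -0.12, Plin1 -0.14, Plin4 -0.10 and G0s2 -0.18. Centred on Pparg and Cebpa, 1 of the 10 was higher, the median was 0.18, Dnmt1 was at -1.43, the lists had 3 and 17, and all tested genes 1133 higher and 6520 lower. With a threshold of 1, 0 of the 10 were higher, the lists had 2 and 0, and all tested genes 910 higher and 1417 lower. Over all tested genes there were 965 higher and 1661 lower with a pseudocount of 1 FPKM, 1281 higher with a minimum of 1 FPKM, 526 and 890 with a minimum of 10 FPKM, and 665 and 1317 where the whole counting interval had to pass 0.5. Depth limits Cideb, Fitm1, Adrb1, Adra2a, Hsd17b13, Elovl3 and Pax8, which had 38 estimated reads or fewer in both libraries, as well as Wfdc2, Ovgp1 and Ucp1, which fell to 4, 7 and 37 reads in AD1KO. No interval covers the spread between animals, which 1 pool per group does not show.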
